A study of Rattus norvegicus with 35 samples.

Results

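The enzymes described here are the phase II conjugation families of the rat mammary gland: the glutathione transferases (Gst, with alpha, mu, pi, theta, omega and kappa classes named by the letter after Gst), the microsomal glutathione transferases (Mgst), the UDP-glucuronosyltransferases (Ugt1 and Ugt2) and the sulfotransferases (Sult). A probe was taken as a member when its gene name in the array files began with Gsta, Gstm, Gstp, Gstt, Gsto, Gstk, Mgst, Ugt1, Ugt2 or Sult. This gave 54 probes for 41 gene names among 41012 probes on the array. RNA was taken from an abdominal mammary gland (left side) of 35 Sprague-Dawley daughters aged 21 days, 5 in each of 7 groups, each on 1 one-colour array, and the design text says that offspring came from more than 1 litter without naming the litter of an array. The control is labelled only as a negative control. The dams of the BPA25 and BPA250 groups received bisphenol A (BPA) by gavage at 25 or 250 µg/kg/day from gestational day 10 to 21. The BPA25+genistein and BPA250+genistein groups had the same BPA doses with genistein, a soy isoflavone, in the chow (250 mg/kg chow, about 5.5 mg/kg/day). The BPA25+I3C and BPA250+I3C groups had them with indole-3-carbinol (I3C), found in cabbage and broccoli, at 2000 mg/kg chow (about 45.0 mg/kg/day). There was no group with genistein or I3C alone, so each diet is read at a fixed BPA dose.

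Phase II enzymes attach a polar group to a drug, hormone, dietary phenol or reactive metabolite so that it can be exported. Glutathione transferases add glutathione, UDP-glucuronosyltransferases add glucuronic acid, and sulfotransferases add sulfate. BPA and genistein are themselves phenols that are cleared as glucuronides and sulfates, and I3C is known as an inducer of several of these enzymes in liver through the aryl hydrocarbon receptor and Nrf2. The comparisons ask whether the families differed in the gland at weaning, when dosing of the dams had ended.

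None of the tested members differed between groups beyond the spread between arrays of a group, which includes differences between slides. Of the 54 probes, 23 probes for 20 genes were bright enough to be tested, and 0 of the 23 passed in any of 6 single comparisons, in the averages over both BPA doses, in the difference of a diet effect between doses or in the F test over the 7 groups (limma, Benjamini-Hochberg adjusted p under 0.05 over 18991 probes). Over all tested probes, 0.00527% passed for BPA25+genistein against BPA25, 0.0105% for BPA25+I3C against BPA25 and 0% in each other comparison. With an unadjusted p under 0.05, 1 member was counted for BPA25+genistein against BPA25 (background 4.8%), 1 for genistein averaged over both doses (9.23%) and 1 for I3C averaged over both doses (5.25%). The count was 0 for BPA25 against control (background 1.97%), BPA250 against control (0.964%), BPA250+genistein against BPA250 (4.17%), BPA25+I3C against BPA25 (4.31%) and BPA250+I3C against BPA250 (4.17%). It was also 0 for the difference between doses of the genistein effect (1.25%) and the I3C effect (3.13%), and 0 in the F test (4.05%). The Sult, Ugt, Mgst and Gst members alike are therefore described by their levels and intervals.

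Which members could be seen at all differed by family. Agilent's software flags a spot as well above background when it exceeds its local surroundings by a set margin, and 18 of the 54 probes (33.3%) had that flag on all 35 arrays, compared with 25.4% of all probes on the array. All 4 Mgst probes had it on all 35 arrays. Of the 20 cytosolic and kappa class Gst probes, 13 were tested and 7 were above background on 12 or fewer arrays. Of 13 Ugt probes 4 were tested, and of 17 Sult probes 2, Sult1a1 and Sult5a1. Counts of tested probes per class were 2 of 4 for alpha, 4 of 8 for mu, 2 of 2 for pi, 3 of 3 for theta, 1 of 2 for omega, 1 of 1 for kappa, 3 of 5 for Ugt1 and 1 of 8 for Ugt2. Testing required the flag on 4 or more of a group's 5 arrays, for 1 group or more. By that rule 42.6% of the member probes were tested, compared with 46.3% of all probes on the array.

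**Figure D1:**
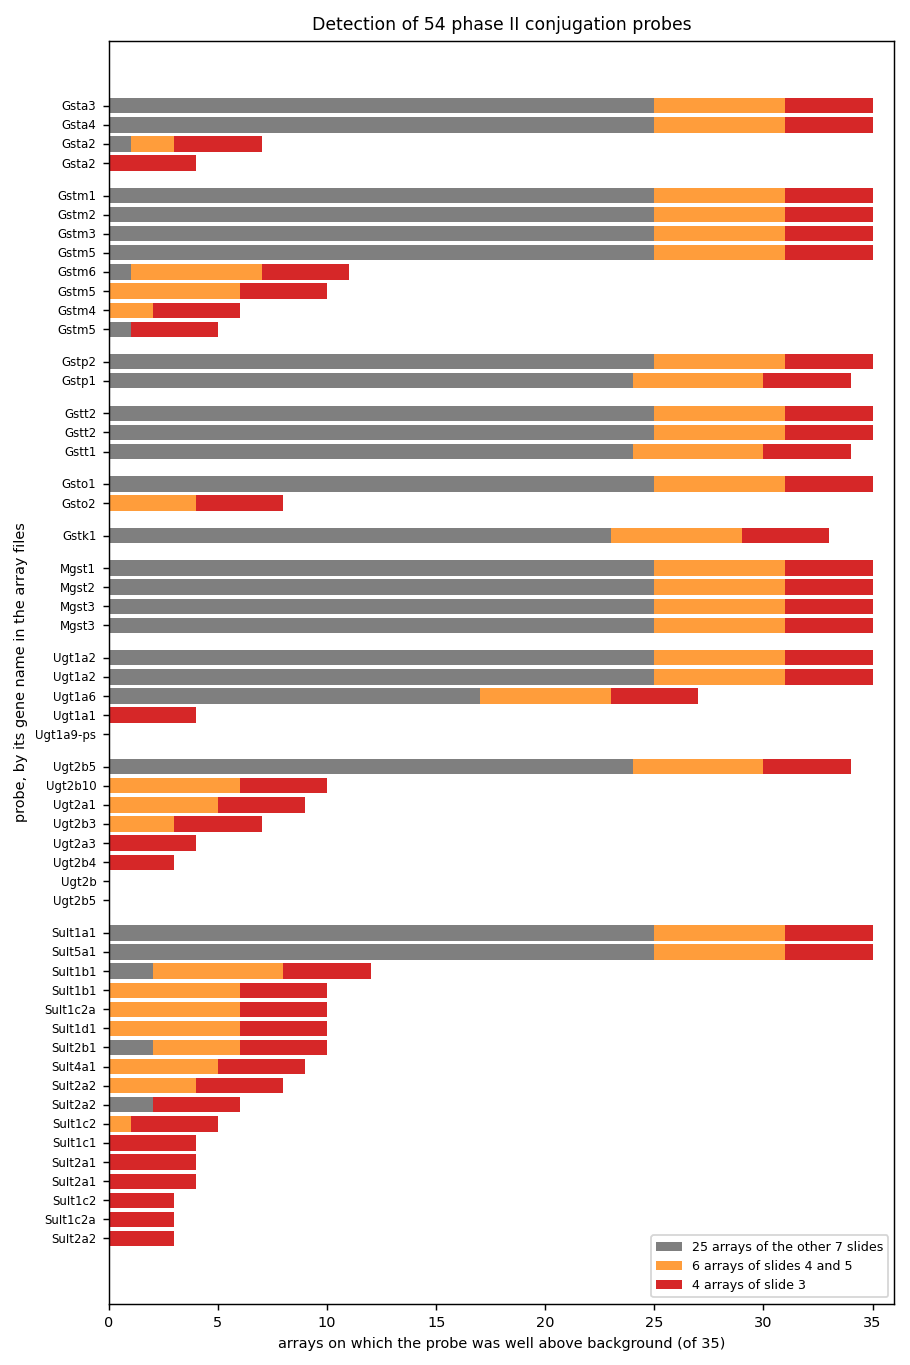
Number of arrays, of 35, on which each of the 54 probes was well above background, by family; bar colours split the count into the 4 arrays of slide 3, the 6 of slides 4 and 5 and the 25 of the other slides. The 31 probes that were not tested are flagged mostly on slides 3, 4 and 5.

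The detection of the fainter members followed the slide. The arrays sit on 10 slides of up to 4 arrays, and on slide 3 (replicate 2 of control, BPA25, BPA250 and BPA25+genistein) 93.5% to 96.5% of probe spots were well above background, compared with 65.5% to 72.6% on slides 4 and 5 and 32.5% to 50.6% on the others. Members above background per array numbered 48 to 51 on slide 3, 33 to 38 on slides 4 and 5, and 20 to 24 on the other 25 arrays. Of the 31 untested probes, 25 to 28 had the flag on each slide 3 array, and 0 or 1 on each array outside slides 3, 4 and 5. Of all 54, 13 had it only on slide 3 or never, 3 of these on no array (Ugt1a9-ps, Ugt2b and 1 of the 2 Ugt2b5 probes). Of the 41012 probes on the array, 6122 had it only on slide 3 or never, 795 of these on no array. Both Gsta2 probes (an alpha class enzyme abundant in liver) were above background on 4 and 7 arrays, and on 0 and 3 without slide 3. The Sult1e1 gene, oestrogen sulfotransferase, is named Ste in the array files and so lies outside the name rule. Its probe was above background on 4 arrays, and on 0 without slide 3.

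The level of most tested members also differed between slides. Levels are log2 signals relative to the 75th percentile of the same array, and levels of different probes cannot be compared. On slide 3 all 23 tested members were lower than on the slides other than 3, 4 and 5, by a median of -1.46 (range -2.46 for Sult1a1 to -0.29 for Ugt2b5), where the median of all tested probes was -0.97 and 73.2% were lower. On slides 4 and 5 the median of the members was -0.42, with 21 of 23 lower. Slide accounted for a median of 72.2% of the members' variance (adjusted R2, range -6.1% to 86.3%), compared with 52.3% for all tested probes, and group for -7.0%, which is no more than 0. The share was -6.1% for Ugt1a6 and 5.2% for Gstk1. Slide, scan day and group are partly mixed: slides 3, 4 and 5 share a scan day, and only 4 of the 7 groups have an array on slide 3. Values without the 4 arrays of slide 3 are given beside many of the main results. Where none is given, the result may still move without them.

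Some probes do not stand for the gene they are named after in a simple way. Their sequences are printed with the places, listed transcripts and flags by which each is read. The following are the probe strands in the scanner files, 5′ to 3′, with places in the rn3 build as those files give them. The Ugt1 family is built from alternative first exons that are spliced to a shared set of later exons. The probes named Ugt1a6 (chr9:87227121-87227180) and Ugt1a1 (chr9:87277942-87278001) are placed upstream of the 2 named Ugt1a2, and capitals mark the longest run, 13 bases, that both contain. The Ugt1a2-named probe shown lies at chr9:87280920-87280979, and the files list transcripts of several Ugt1a forms for it.
Ugt1a6: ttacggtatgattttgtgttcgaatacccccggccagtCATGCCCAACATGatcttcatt
Ugt1a1: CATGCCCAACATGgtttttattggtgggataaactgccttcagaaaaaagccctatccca
Ugt1a2: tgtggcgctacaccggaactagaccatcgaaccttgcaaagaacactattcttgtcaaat
The probe named Ugt1a2 was above background on 35 arrays, that of Ugt1a6 on 27 and that of Ugt1a1 on 4. The 2 Ugt1a2-named probes are therefore described as Ugt1a signal, not as the Ugt1a2 form.

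The pi class has 2 probes of the same locus, and they are shown because their values part in 2 animals. The files list transcripts of both Gstp1 and Gstp2 for the Gstp1 probe, which is placed at chr1:206782597-206782754 on the minus strand, a stretch longer than the probe itself. The Gstp2-named probe is at chr1:206780855-206780914 on the same strand, nearer the 3′ end, and only 30 bases of it are given, with the AATAAA polyadenylation signal in capitals. RefSeq (GRCr8) lists Gstp2 among the synonyms of Gstp1.
Gstp1: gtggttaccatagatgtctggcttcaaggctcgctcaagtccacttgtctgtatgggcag
Gstp2: ttttcccagactAATAAAgtttgtaaggca

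Of 3 probes named Gstm5, a mu class transferase, the first below lies on the plus strand (chr2:203420315-203420465). The other 2, for which the files name a cDNA clone sequence, are placed on the minus strand beside it (chr2:203421320-203421630 and chr2:203420991-203421219). The first was above background on 35 arrays, and the reverse probes on 5 and 10, so the reverse probes are not used as Gstm5.
Gstm5 sense: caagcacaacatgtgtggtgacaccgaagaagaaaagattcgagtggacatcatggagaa
Gstm5 reverse A: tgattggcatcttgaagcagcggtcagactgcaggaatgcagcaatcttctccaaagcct
Gstm5 reverse B: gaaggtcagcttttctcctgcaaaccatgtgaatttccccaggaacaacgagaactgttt

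In the Ugt2b group, the probes named Ugt2b (chr14:22178777-22178836) and Ugt2b5 (chr14:22420991-22421050) read related genes and are printed with their longest common run, 13 bases, in capitals. Both were above background on 0 of 35 arrays. A second probe named Ugt2b5, at another place of the same chromosome, was above background on 34 and had no match in RefSeq.
Ugt2b: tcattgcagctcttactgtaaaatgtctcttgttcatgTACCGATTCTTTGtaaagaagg
Ugt2b5: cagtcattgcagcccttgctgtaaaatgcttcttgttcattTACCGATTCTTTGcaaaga

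Gstk1, the mitochondrial and peroxisomal kappa class transferase, had the lowest fitted value of the tested members in both genistein comparisons, from 1 array in each group. Its log2 level was 2.73, 1.00, 3.00, 3.40 and 3.12 in the control animals, 2.64, 1.19, 3.16, 3.26 and 3.02 with BPA25, and 3.26, 1.16, 2.29, 3.28 and 3.55 with BPA250. It was 2.93, 0.91, 2.68, -1.57 and 2.95 with BPA25+genistein and 2.75, 2.75, 2.73, -1.86 and 2.86 with BPA250+genistein. In both genistein groups replicate 4 lay far below every other animal of the study, and the lowest value of the 3 groups without diet, as well as that of BPA25+genistein replicate 2, came from slide 3. With I3C it ran from 2.73 to 3.55 at the lower BPA dose and from 2.87 to 3.77 at the higher. The fitted log2 fold change for genistein was -1.08 at BPA25 and -0.86 ± 0.74 (SE) at BPA250, with an adjusted p of 1 in limma for the latter, and the groups overlapped.

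The low Gstk1 values lie in a dark oval in the middle of 2 arrays. On BPA25+genistein replicate 4 (slide 7) and BPA250+genistein replicate 4 (slide 8), 447 of 18874 tested single-spot probes were more than 1 log2 unit below all 33 other arrays on both, and 445 of them (99.6%) lay within rows 192 to 341 and columns 27 to 58 of a grid of 532 rows and 85 columns. That box was drawn from the same 2 arrays and not fixed beforehand. It spans the 1437 spots whose surroundings were low by over 1 on both, and holds 11.1% of the tested single-spot probes. The Gstk1 spot is at row 228 and column 44. The 59 tested spots around it (up to 8 rows and 4 columns away) had a median deviation from their usual level of -1.16 and -1.47 on these arrays, relative to the whole array, and between -0.05 and 0.30 on the other 33. No array outside slide 3 and these 2 had any spot whose surroundings were low by more than 1. In the authors' deposited log2 table the same arrays hold Gstk1 at 5.47 and 6.33, against 9.08 to 10.94 on the others.

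**Figure D2:**
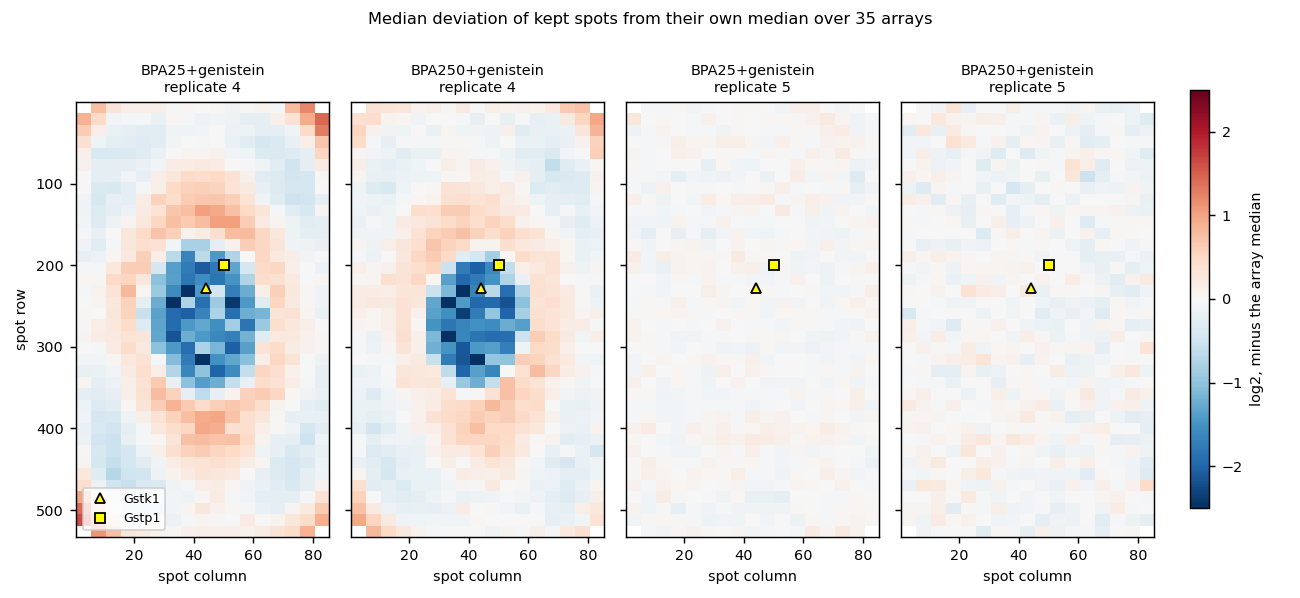
Each panel is 1 array of a genistein group, with the median log2 deviation of tested spots from their own median over 35 arrays, relative to the array's median, in blocks of 14 rows and 5 columns; the triangle and the square mark the spots of Gstk1 and Gstp1. Both replicate 4 arrays have a dark oval with a bright rim in the middle, which holds both spots, and the replicate 5 arrays do not.

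Without the spots in such patches (spots whose surroundings were over 0.5 from the array's median), Gstk1 differed by -0.29 ± 0.48 (SE, n = 4 against 5) for BPA25+genistein against BPA25 and by 0.06 ± 0.48 for BPA250+genistein against BPA250, so its direction at the higher dose turned in that fit. The values without both arrays were the same, -0.29 ± 0.48 and 0.06 ± 0.48. The fold changes for BPA against control were 0.01 and 0.06, and those for I3C 0.47 and 0.59, at the lower and the higher dose. Without slide 3 the I3C values were 0.10 ± 0.75 and 0.20 ± 0.75.

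Gstp1, the pi class transferase that is widely used as a marker of altered growth in rat liver, is read by 2 probes. The one named Gstp1 read 3.05, 1.11, 3.37, 2.81 and 3.11 in the control animals, 3.00, 1.60, 3.31, 2.92 and 3.36 with BPA25 and 2.80, 0.93, 2.78, 3.11 and 3.15 with BPA250. With BPA25+genistein it read 2.41, 1.60, 2.62, 0.18 and 3.03, and with BPA250+genistein 2.77, 2.08, 2.36, 0.25 and 2.80. The lowest value in each genistein group is again replicate 4, the array with the dark oval, and the spot is at row 200 and column 50. The 63 spots around it deviated by a median of -1.37 and -0.83 on these arrays and by -0.20 to 0.19 on the other 33. The genistein fold change was -0.87 ± 0.50 (unadjusted p = 0.0881 and adjusted p = 1 in limma) at BPA25 and -0.50 at BPA250. Without the spots in patches it was -0.42 ± 0.42 and -0.05 ± 0.42. That fit keeps the slide 3 arrays, and BPA250 has one while BPA250+genistein has none. With slide 3 also left out, the mean was 3.148 with BPA25 and 2.6855 with BPA25+genistein. It was then 2.9608 with BPA250 and 2.5044 with BPA250+genistein, so lower with genistein at both doses. The arrays of the groups still overlapped, and these differences were not tested.

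The Gstp2-named probe of the same locus, whose spot lies outside the oval, gave its highest values on the same 2 arrays, 6.57 in BPA25+genistein replicate 4 and 6.59 in BPA250+genistein replicate 4, where the control animals read 5.77, 3.54, 5.99, 5.72 and 5.83. Its genistein fold changes were 0.19 ± 0.48 and 0.40 ± 0.48, opposite in sign to those of the Gstp1 probe, and -0.05 ± 0.50 and 0.18 ± 0.50 without both arrays. With I3C the Gstp1 and Gstp2 probes gave 0.06 and 0.33 at the lower BPA dose and 0.31 and 0.43 at the higher. Without slide 3 none of these stayed above 0: the Gstp1 probe gave -0.25 ± 0.42 and -0.10 ± 0.42 and the Gstp2 probe -0.04 ± 0.28 and -0.00 ± 0.28. The Gstp2 value for genistein at BPA250 was then -0.03. No pi class value passed in any of these comparisons.

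**Figure D3:**
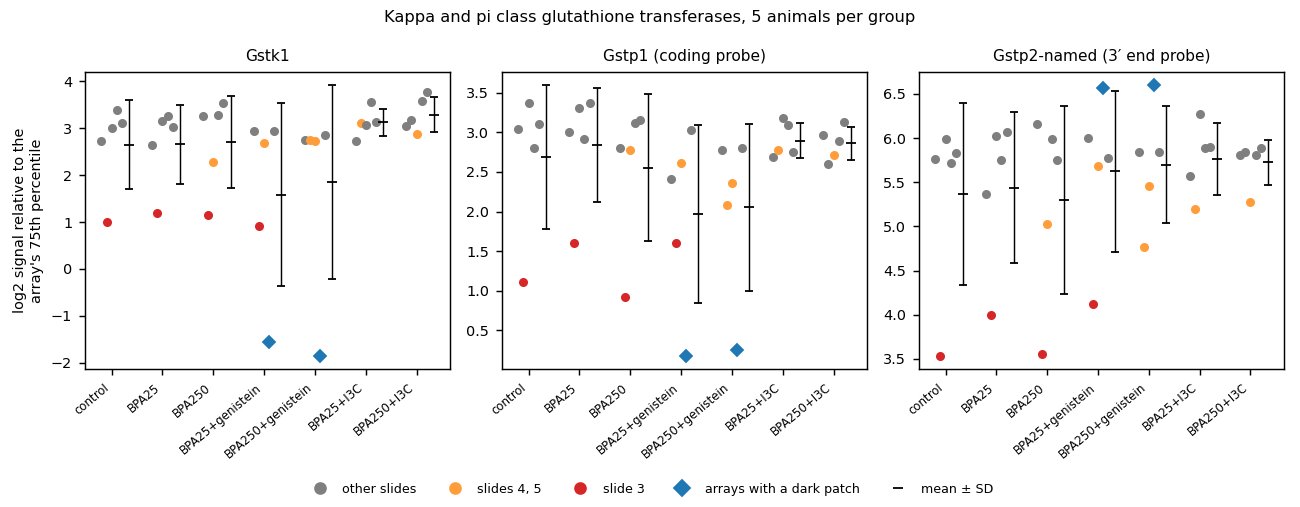
Log2 signal of Gstk1 and of the 2 pi class probes in every animal by group, with mean and SD beside the points; red points are slide 3, orange slides 4 and 5, blue diamonds the 2 arrays with a dark patch. The diamonds are the lowest points for Gstk1 and the Gstp1 probe and the highest for the Gstp2-named probe.

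Among the mu class enzymes, which conjugate epoxides and quinones, Gstm1 had the smallest unadjusted p of the members in a single comparison. It read 1.54, 0.24, 1.49, 0.96 and 1.41 with BPA25 and -0.08, -0.04, 1.08, 0.43 and 0.74 with BPA25+genistein. The control values were 0.75, 0.12, 1.47, 1.31 and 0.82. With BPA250 they were 0.82, -0.25, 1.01, 1.32 and 1.51 and with BPA250+genistein 0.46, 0.82, 1.14, 1.18 and 0.96. The groups overlapped in each comparison. The fold change for BPA25+genistein against BPA25 was -0.70 ± 0.31 (SE, n = 5 against 5), with an unadjusted p of 0.0323 and an adjusted p of 0.982 in limma. At BPA250 it was 0.03, and the difference between doses was 0.73 ± 0.44 (unadjusted p = 0.109 in limma). With slide as a random block the BPA25 value was -0.76 ± 0.23 (adjusted p = 0.237), and its spot did not lie in a patch. The I3C values were -0.32 at BPA25 and 0.24 at BPA250. Without slide 3 Gstm1 was -0.81 ± 0.25 for genistein at BPA25, and its BPA250 values turned to -0.25 for genistein and -0.04 for I3C.

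The other mu class members gave smaller values in no common direction. Gstm3 (named Gstm7 in RefSeq) was 0.58 ± 0.31 for BPA25+I3C against BPA25 (unadjusted p = 0.0736, adjusted p = 0.999 in limma) and -0.35 for BPA25 against control. For BPA25+genistein against BPA25 it was 0.34 from 4 arrays, since the spot of replicate 2 had an outlier flag. Without slide 3 the BPA25+I3C value was 0.38 and the BPA25+genistein value 0.14. Gstm5, by its plus strand probe, was -0.43 ± 0.36 for BPA250+genistein against BPA250, and -0.70 ± 0.27 without slide 3. Gstm2 ranged from -0.35 to 0.04 over the 6 single comparisons, and from -0.44 to 0.10 without slide 3. 

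The alpha class enzymes act on lipid peroxidation products and steroids. Gsta3 (Gsta1 in RefSeq) read 4.42, 2.87, 4.55, 5.01 and 5.03 in the control animals and lay between 3.96 and 5.57 with BPA250+genistein, a fold change of 0.37 against BPA250 that turned to -0.09 ± 0.30 without slide 3. Its lowest value in each of 4 groups was the slide 3 array. Gsta4, which detoxifies hydroxynonenal, ranged from 0.03 to 0.19 over the 6 comparisons. It was 0.19 ± 0.26 for BPA25 against control and again 0.19 for BPA25+genistein against BPA25. The latter includes replicate 4 at 3.17, the highest Gsta4 value of the study, whose spot lies in the bright rim of the oval (surroundings 0.594). With that spot left out the value turned to -0.04 ± 0.25. Without slide 3 the genistein value at BPA250 and both I3C values of Gsta4 also turned, to -0.08, -0.06 and -0.03.

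The theta class had 2 genes. Gstt1 was 0.20 ± 0.30 for BPA250 against control and -0.31 ± 0.30 for BPA250+I3C against BPA250, and the latter was -0.51 ± 0.27 without slide 3. For Gstt2 a coding probe and an end probe gave different values. The end probe is printed by its last 30 bases, with AATAAA in capitals.
Gstt2 coding: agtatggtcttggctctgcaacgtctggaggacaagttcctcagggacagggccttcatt
Gstt2 end: tacattgccctctaatctgtatggAATAAA
The coding probe (chr20:13224463-13224522) was -0.17 for BPA25+I3C and -0.55 for BPA250+I3C against the same BPA dose, and the end probe (chr20:13225516-13225575) 0.74 and -0.15. For genistein they were -0.07 and 0.13 by the coding probe and 0.51 and 0.46 by the end probe. At BPA25 the probes differed in sign for both diets, and at BPA250 they shared a sign, lower with I3C and higher with genistein. Without slide 3 the coding probe mean was -0.45 with BPA250, -1.17 with BPA250+I3C and -0.49 with BPA250+genistein. The end probe means were then 1.98, 1.43 and 2.04, so the genistein values at BPA250 also differed in sign. No direction is therefore given for Gstt2 apart from BPA250+I3C, where both probes were lower and neither passed. Gsto1, an omega class enzyme that reduces dehydroascorbate, read 2.98, 1.36, 2.83, 3.14 and 2.82 with BPA250 and 3.55, 2.87, 3.11, 3.33 and 3.34 with BPA250+I3C. The I3C animals were at the upper end, and the groups overlapped. The fold change was 0.61 ± 0.36 (unadjusted p = 0.0962, adjusted p = 0.776 in limma), and 0.57 ± 0.20 (adjusted p = 0.531) with slide as a random block. Without slide 3, which holds the lowest BPA250 value, it was 0.30 ± 0.21. At BPA25 it was 0.06, and -0.18 without slide 3.

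The microsomal enzymes, membrane proteins that also take part in leukotriene and prostaglandin metabolism, were the family most evenly detected. Mgst3 was the member with an unadjusted p under 0.05 for I3C averaged over both doses. Its brighter probe read 5.92, 4.09, 5.64, 5.84 and 5.87 with BPA25 and 5.77, 5.35, 6.45, 6.02 and 6.39 with BPA25+I3C. With BPA250 it read 5.63, 3.73, 5.05, 5.98 and 6.54 and with BPA250+I3C 6.37, 5.79, 5.85, 6.26 and 6.36. BPA25 and BPA250 each hold 1 slide 3 array, their lowest, and no I3C group does, and the groups overlapped. The averaged fold change was 0.63 ± 0.31 (unadjusted p = 0.0465, adjusted p = 0.701 in limma). It was 0.38 ± 0.18 (adjusted p = 0.706) with slide as a random block and 0.25 ± 0.18 without slide 3. The second Mgst3 probe gave 0.51 ± 0.32 (adjusted p = 0.701), and 0.13 ± 0.18 without slide 3.

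Mgst1, which is activated by oxidative stress in liver, read 5.61, 3.55, 5.90, 5.79 and 5.66 in the control animals and 6.15, 4.17, 6.16, 6.07 and 5.59 with BPA25. With BPA25+genistein it read 5.96, 3.25, 5.42, 5.70 and 5.70. Genistein fold changes were -0.42 at BPA25 and -0.12 at BPA250, and I3C ones -0.07 and 0.52. Without slide 3 they were -0.30 and -0.60 ± 0.23 for genistein and -0.43 ± 0.23 and 0.04 ± 0.23 for I3C. Mgst2 was 0.43 ± 0.45 for BPA250 against control, and -0.45 for BPA25+genistein against BPA25. In the microsomal family 4 of 4 probes were higher and 0 lower for BPA250+I3C against BPA250 with a median of 0.61, where the median of all tested probes was 0.23. With slide as a random block Mgst3 was 0.50 ± 0.24 in that comparison and Mgst1 0.26 ± 0.27. Without slide 3 only 3 of the 4 probes were higher: the Mgst3 probes gave 0.33 and 0.27, Mgst1 0.04 and Mgst2 -0.02.

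**Figure D4:**
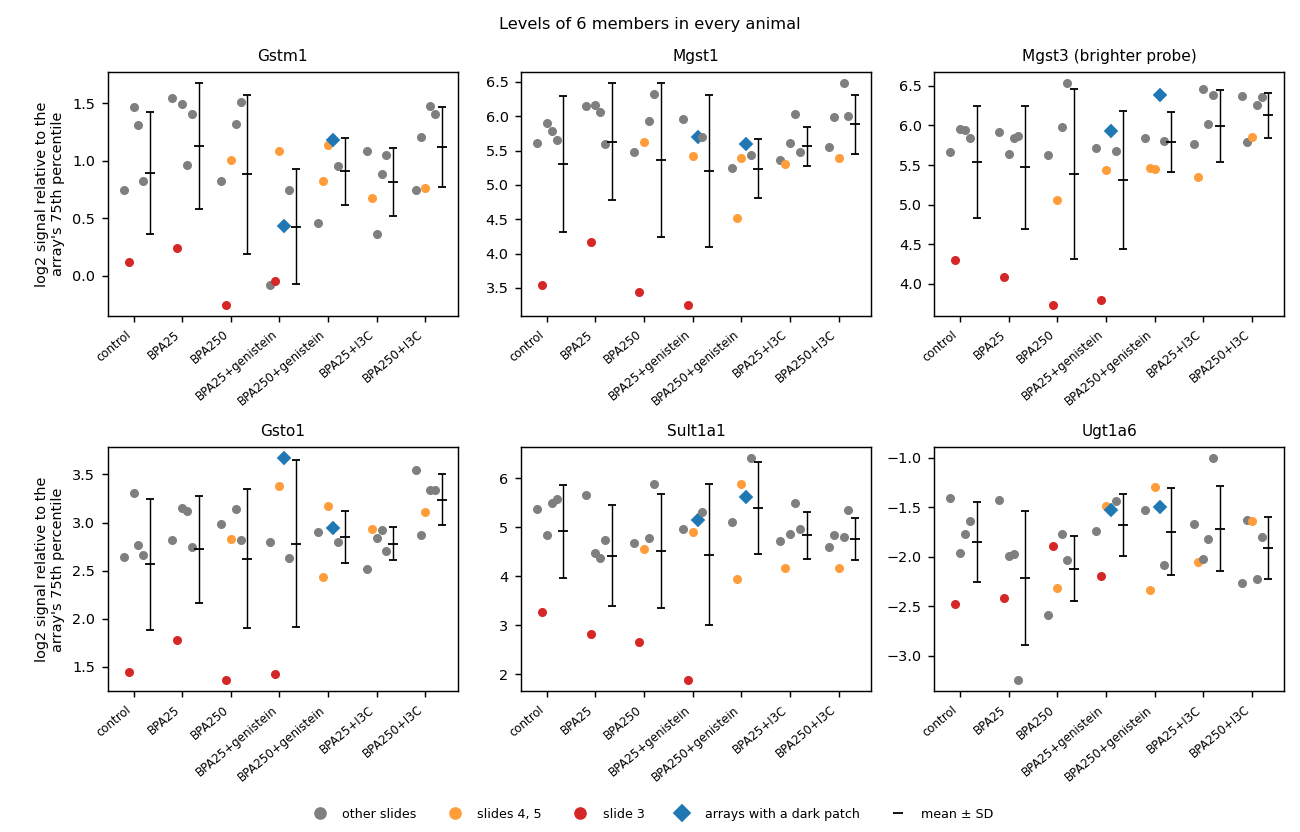
Log2 signal of Gstm1, Mgst1, Mgst3, Gsto1, Sult1a1 and Ugt1a6 in every animal by group, with mean and SD beside the points and the same colours for slides and patch arrays. Slide 3 holds the lowest Mgst1, Mgst3, Gsto1 and Sult1a1 value of each of the 4 groups it is in, and the groups overlap in the 6 single comparisons.

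For the glucuronosyltransferases, Ugt1a6, the form that conjugates small planar phenols, had the only member value with an unadjusted p under 0.05 for genistein averaged over both doses. It read -1.43, -2.42, -1.99, -1.97 and -3.25 with BPA25, and -1.74, -2.19, -1.49, -1.52 and -1.44 with BPA25+genistein. With BPA250 it read -2.58, -1.89, -2.32, -1.77 and -2.03, and with BPA250+genistein -1.53, -2.33, -1.30, -1.50 and -2.08. The averaged fold change was 0.45 ± 0.21 (unadjusted p = 0.0339, adjusted p = 0.502 in limma). It was 0.54 ± 0.29 at BPA25 and 0.37 ± 0.29 at BPA250, and with normexp background correction the BPA25 value turned to -0.06. This probe is dim: it was above background on 3 of 5 arrays in BPA250 and in both genistein groups, 4 of 5 in control and BPA25 and 5 of 5 in both I3C groups, and slide did not account for its variance (-6.1%). Its I3C values were 0.50 at BPA25 and 0.21 at BPA250. The 2 Ugt1a2-named probes were 0.29 and 0.56 for BPA25+I3C against BPA25, and 0.46 and 0.16 for BPA250+I3C against BPA250. Without slide 3 these were -0.03 and 0.39, and 0.18 and -0.04.

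The Ugt2b5-named probe varied widely between animals of 1 group. It read -0.77, -0.76, 2.78, -0.23 and 0.51 with BPA25+genistein and -0.03, -1.63, 0.27, -1.76 and 1.73 with BPA250+genistein. With BPA250 it read 0.92, -0.30, -1.72, -0.02 and 0.57 and with BPA250+I3C -0.61, -0.56, -0.42, -1.58 and -2.03. The fold change of the latter comparison was -0.93 ± 0.62 (adjusted p = 0.776 in limma), and the groups overlapped.

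The sulfotransferase Sult1a1, the main phenol sulfotransferase, was 1 of the 2 tested Sult members. It read 5.37, 3.28, 4.85, 5.50 and 5.57 in the control animals, 5.67, 2.83, 4.48, 4.38 and 4.75 with BPA25 and 4.67, 2.66, 4.56, 4.79 and 5.88 with BPA250. With BPA250+genistein it read 5.10, 3.95, 5.87, 5.62 and 6.41. BPA250+genistein against BPA250 gave 0.88 ± 0.59 (unadjusted p = 0.143, adjusted p = 1 in limma), and 0.41 ± 0.37 without slide 3. Against control it was -0.49 ± 0.59 for BPA25 and -0.40 ± 0.59 for BPA250, and BPA25+genistein against BPA25 gave 0.02. Without BPA250 replicate 2, the slide 3 array, the BPA250 value turned to 0.06 ± 0.58, but the control array of slide 3 (3.28) stayed in that fit. With slide 3 left out of both groups the mean was 5.32 in control and 4.98 with BPA250, so BPA250 stayed lower. Sult5a1 ranged from -0.20 to 0.41 over the 6 comparisons, and from -0.39 to 0.11 without slide 3. The 15 other Sult probes, among them those for Sult1b1, Sult1d1 and Sult2b1, were above background on 3 to 12 arrays.

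**Figure D5:**
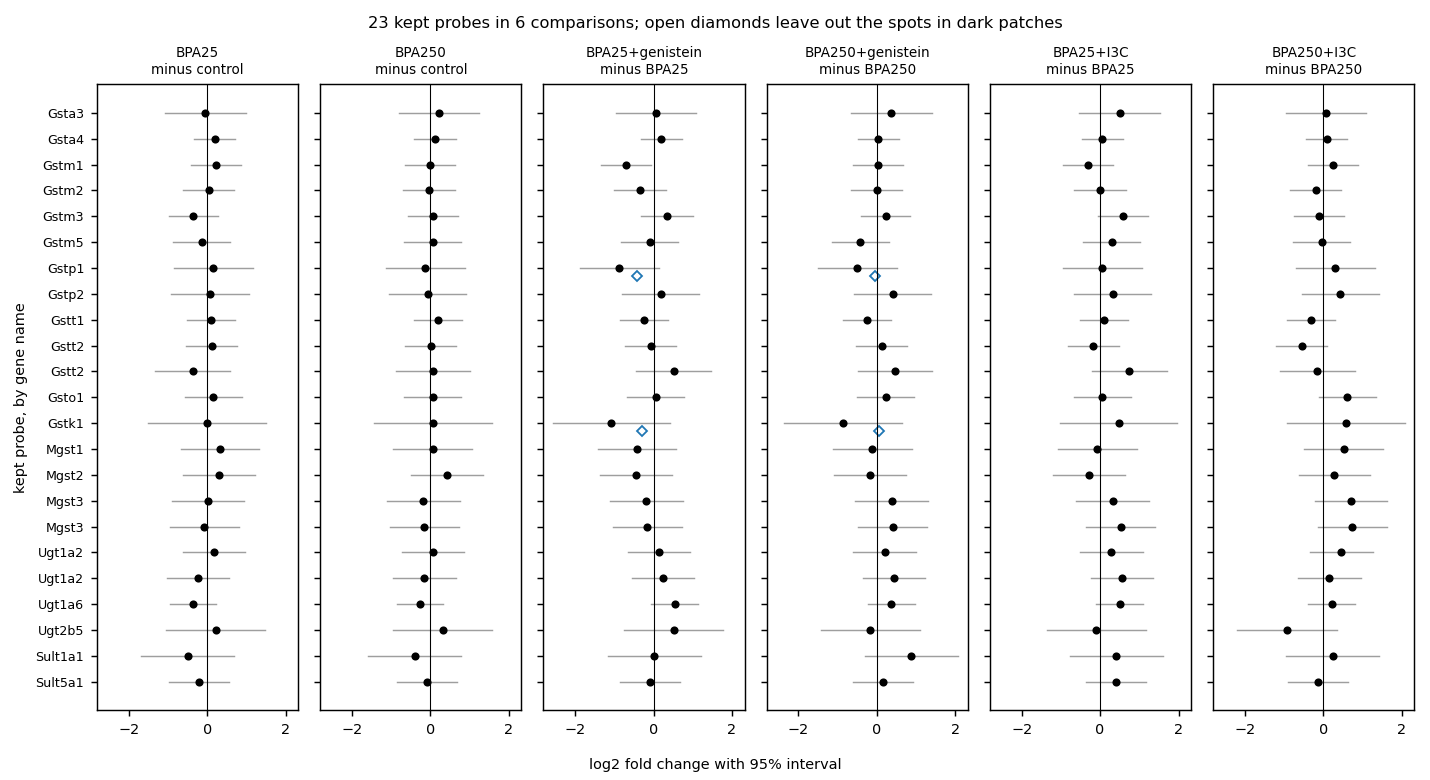
Fitted log2 fold change with its 95% interval for the 23 tested probes in 6 comparisons, ordered by family; open diamonds give Gstk1 and Gstp1 with the spots in patches left out. Only the interval of Gstm1 for BPA25+genistein against BPA25 leaves out 0, and 0 of 23 probes pass after adjustment in each panel.

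By comparison, 14 of the 23 tested probes were higher for BPA25 against control (median 0.04) and 13 for BPA250 (median 0.06). For genistein 11 were higher at BPA25 (median -0.07) and 15 at BPA250 (median 0.15). For I3C 17 were higher at BPA25 (median 0.30) and 15 at BPA250 (median 0.21), where the medians of all tested probes were 0.12 and 0.23. With centring on probes above background on all arrays, 7 of 23 were higher for BPA250+I3C and 13 for BPA25+I3C. With normexp background correction 5 of 23 were higher for BPA25 and 4 for BPA250 against control, and without the arrays of slide 3, 5 of 23 for BPA250+genistein and 11 for BPA25+I3C. No direction is therefore given for the members as a list in these comparisons. In none of the 6 comparisons did the 5 arrays of 1 group lie wholly apart from the 5 of the other for any tested member, beside 0.242%, 0.3%, 0.29%, 0.437%, 0.716% and 1.1% of all tested probes in the same order. BPA25 and BPA250 each hold a slide 3 array, so a lower diet group could overlap them through that array alone. The Gstt2 coding probe read -0.64, -1.27 (slide 3), -0.32, -0.42 and -0.43 with BPA250 and -1.52 to -0.97 with BPA250+I3C. The share of all tested probes without slide 3 was not computed.

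The width of the intervals sets what could have been missed. The median standard error of a member's fold change was 0.39, and 56 of 138 intervals (23 probes in 6 comparisons, 40.6%) lay within a 2-fold change either way. With the spots in patches left out and slide as a random block, 120 of 138 (87%) did, with a median standard error of 0.24. For the remaining intervals a 2-fold difference stayed within reach of the error.

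The other genes of the pathway also gave a count of 0. Of 37 genes in lists for cofactor supply, other conjugation enzymes, conjugate export, deconjugation and regulators, 22 were tested, and 0 passed in any comparison. In cofactor supply 7 of 10 were tested, in other conjugation 7 of 8, in export 2 of 5, in deconjugation 2 of 3 and in regulators 4 of 11. Cyp1a1, the classic target of the aryl hydrocarbon receptor, was above background on 10 arrays, 6 of them outside slide 3, and Nqo1, a target of Nrf2, on 14. Ugp2, which makes UDP-glucose, was -1.06 ± 0.87 and -1.22 ± 0.87 for genistein at BPA25 and BPA250, and -0.13 ± 0.51 and -0.04 ± 0.51 without the spots in patches. Sts, steroid sulfatase, was -0.93 and -0.69, and -0.06 and 0.29 without them. Gsr, glutathione reductase, lies in the same oval and was -0.41 and -0.21, and -0.06 and 0.24 without those spots.

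The tissue is a whole fat pad. Of 7 adipocyte markers 6 were tested and above background on all 35 arrays, while of 6 luminal epithelial markers 5 were tested and 1 was above background on all. Elf5, a luminal progenitor factor, was above background on 9 arrays and Krt8 on 24. The mean of the skeletal muscle markers was 2.51 in control, 3.02 with BPA25 and -0.0005 with BPA250, and lay between -1.67 and -0.97 in the 4 diet groups. Single arrays ran from 1.29 to 3.66 in control, 0.51 to 4.13 with BPA25 and -2.02 to 1.30 with BPA250. They ran from -2.86 to 3.09 with BPA25+genistein and -3.36 to 2.465 with BPA25+I3C, which overlaps control and BPA25. At the higher dose they ran from -3.21 to 0.73 with genistein and -3.36 to 1.005 with I3C. The mean of the luminal markers was 1.06 with BPA25 and -0.04 with BPA25+I3C, and that of the erythroid markers 3.58 with BPA250 and 5.49 with BPA250+I3C. The part of these cells in the members' values was not tested. In such a sample fewer cells of a type and less RNA per cell cannot be told apart.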

How the data were processed

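Each array was deposited as spot-level output of Agilent Feature Extraction 9.5.3.1, per the submitters' processing notes. Per the file headers, the processed signal is an intensity with background subtracted and spatial detrending, and other deposited columns are flags of 0 or 1. The authors also deposited a table of log2 values whose normalization is not given in the sources used here. The direction and scale of its columns were compared with the processed signal, and the column medians ran from 6.55 to 6.58.

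From the log2 processed intensity, the 75th percentile over an array's probe spots (without 1639 control spots) was subtracted. Spots with an outlier flag were set to missing and spots of 1 probe averaged. Tested probes had the above-background flag on 4 or more of the 5 arrays of some group and at most 5 missing values. A model of 7 group means over the 35 arrays was fitted in limma 3.58.1 (R 4.3.3, the data.table package (1.17.8)), with Benjamini-Hochberg adjustment over 18991 probes and a threshold of 0.05. The main model has no slide term. Its p-values measure the spread between arrays of a group, which holds differences between slides as well as between animals. Litters are not named and could not be taken into account. The number of arrays limits the precision.

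Members and gene lists were chosen with earlier results of these data known. Named genes are those above background on at least 28 arrays, those with the smallest p in each direction per comparison, and a short list looked up in each case. The brightest probe stands for a gene, and others are given where they differ. RefSeq (GRCr8) names matched 52 of 54 member probes. Same-numbered animals deviated together (correlation over 0.1) in all 5 pairs only for BPA25 against control and BPA250+genistein against BPA250. The labels give no source for that pairing.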

Additional observations from a re-analysis of the deposited data

Results flagged for a closer look

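In 140 sets of 4 or 5 arrays (20 genes in 7 groups), 29 had 1 array standing apart from the rest by Dixon's criterion, where chance gives about 7. Of these, 25 were slide 3 arrays, all replicate 2. The control replicate 2 array stood apart for Mgst3 (4.30), Gstp2 (3.54), Mgst1 (3.55), Gsta3 (2.87), Gstk1 (1.00), Gstp1 (1.11) and Sult5a1 (-0.12). BPA25 replicate 2 stood apart for Mgst3 (4.09), Mgst1 (4.17), Gsta3 (2.89), Gstp1 (1.60), Gstm2 (1.35), Ugt1a2 (0.33), Gstt2 (0.10) and Sult5a1 (-0.15). BPA250 replicate 2 stood apart for Gsta3 (2.76), Gsto1 (1.36), Gstp1 (0.93) and Gstt1 (-1.18). BPA25+genistein replicate 2 stood apart for Mgst3 (3.79), Mgst1 (3.25), Sult1a1 (1.87), Gsta3 (2.39), Gstm2 (1.11) and Sult5a1 (-0.34).

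The other 4 were Gstk1 (-1.86) and Gstp1 (0.25) in BPA250+genistein replicate 4, an array with a dark oval, Gstp2 (5.27) in BPA250+I3C replicate 3 and Gstm5 (0.83) in BPA25+I3C replicate 4.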

How the results depend on the processing

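The count of members that passed was 0 in every comparison under each of the 52 alternatives, including each array left out in turn (range 0 to 0). Each alternative in each comparison gives 572 cases. The count over all tested probes was equal or close to that of the main fit in 460 of them, higher in 60 and lower in 52. Alternatives without slides 3, 4 and 5, without both arrays with a dark oval, without spots in patches, and without such spots with slide as a random block were chosen after seeing the data. With the replicate number as a block the count was also 0. Under that block Mgst3 for I3C averaged over both doses was 0.63 with an unadjusted p of 0.00213 and an adjusted p of 0.279 in limma, and the block changed no call of a member. All slide 3 arrays are replicate 2, but no I3C array is on slide 3. The block therefore does not even out slide 3, and the smaller Mgst3 value without slide 3 is given above. Of 24 named fold changes 5 changed sign in at least 1 alternative: Gsta4 and Ugt1a6 for BPA25, Sult1a1 for BPA250, Ugt1a6 for BPA25+genistein and Gstk1 for BPA250+genistein. With slide as a random block Gstp1 for genistein averaged over both doses was -0.86 (adjusted p = 0.0835 in limma), and -0.17 (adjusted p = 0.598) with the spots in patches also left out. Both fits keep the slide 3 arrays. The Gstp1 means without slide 3 and such spots, lower with genistein at both doses, are given above. Dim members such as Ugt1a6 are limited by signal over background, and 31 members were not tested.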

Other observations

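RefSeq places 7 further probes of these families under other names in the array files, 2 of them above background on all 35 arrays. Gstm4, a mu class transferase named MGC108896, was 0.52 ± 0.35 for BPA25 and 0.43 ± 0.35 for BPA250 against control, and -0.58 ± 0.35 and -0.60 ± 0.35 for I3C at BPA25 and BPA250 (adjusted p of 0.776 or more in limma). Gsta3, an alpha class transferase named Yc2, was 0.28 ± 0.37 and 0.29 ± 0.37 for BPA at the lower and higher dose. The probes of Sult1e1, Ugt2b1, Ugt2b7, Sult2a6 and Gsta3l1 were above background on 4 to 8 arrays.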
